A study of Arabidopsis thaliana with 6 samples.

Results

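The transcripts described here were detected on every wild-type array and on no mutant array in a microarray study of Arabidopsis thaliana seedlings. The mutant, pgp1-2, carries a lesion in PGP1, the gene for phosphatidylglycerophosphate synthase. A probe was taken when the scanner software flagged it as well above background on all 3 wild-type arrays and on 0 of 3 pgp1-2 arrays, and when its mean log2 signal was at least 1 higher in the wild type. Of 34261 genes on the array, 48 met this rule, from 49 probes. With 4 loci left out by the rule itself, 44 transcripts remained, each represented by 1 probe. The transcripts were thus chosen by the detection flags and signals of both groups, so their difference between the groups is a description and carries no test. The same rule with the groups exchanged gave 95 transcripts detected only in pgp1-2.

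Phosphatidylglycerol is the main phospholipid of the photosynthetic thylakoid membrane, and phosphatidylglycerophosphate synthase makes its direct precursor. Seedlings that lack most of this lipid are pale, grow slowly and assemble few working photosystems. Whether a transcript counts as detected depends on where the detection limit of an array lies as well as on the amount of RNA. Whole seedlings contain leaf, stem and root, and in such samples fewer cells of a type and less RNA per cell cannot be told apart.

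Both groups were whole seedlings of the Columbia-0 ecotype, grown on agar with 3% sucrose in continuous light. The 3 wild-type samples were 14 d old, with a photon flux (µmol m-2 s-1) of 30 during the first 7 d and of 15 during the last 7 d. The 3 pgp1-2 samples were 21 d old, with a flux of 30 during the first 14 d and of 15 during the last 7 d. Genotype and age therefore cannot be told apart, and nothing in the labels says that the replicates came from separate cultures. Each sample was hybridised to 1 one-colour array of 45220 spots. Signals are given on a log2 scale on which 0 marks the 75th percentile of the non-control spots of each array. On slide 1, which held wild-type array 1 and pgp1-2 array 1, 78.6% and 79.1% of non-control spots were well above background, against 68.5% to 70.4% on the other 4 arrays, which lay on slide 2. The lowest signal that counted as well above background was -8.13 and -8.37 on the slide 1 arrays and lay between -6.46 and -5.94 on slide 2.

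PGP1 was read first, as a check of the labels. Its signal was 0.78, 0.93 and 0.73 on wild-type arrays 1 to 3 and -8.81, -7.43 and -8.72 on pgp1-2 arrays 1 to 3. It was well above background on no mutant array and at least 226-fold higher in the wild type. Such a fold is a nominal bound: a mutant signal below the faintest detected signal of any probe on its array was first raised to it. All folds below that begin with "at least" were made in this way. The limit differs between spots, and undetected AT4G36770 lay 0.53 above that faintest signal on a mutant array. A true fold could therefore be smaller than the bound.

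The 44 transcripts had low signals in the wild type, with means from -6.04 to -3.02 and a median of -4.90. Of the 29423 probes well above background on all 3 wild-type arrays, 4.98% lay below that median and 21.2% below the brightest of the 44. Their means in pgp1-2 ran from -9.31 to -7.35. The lower bound of the difference ran from at least 1.95-fold to at least 15.8-fold with a median of at least 4.31-fold; it reached 4-fold for 23 transcripts and 8-fold for 11. The groups did not overlap for 43 of the 44, where 29.6% of the 22706 genes detected on all arrays of at least 1 group had wild-type arrays that all lay above the mutant arrays; the rule used these values, so nothing is read from that count. MYB41 was the exception. The bounds depend on the background correction and on single arrays. The median bound, 2.11 on the log2 scale, was 0.87 after normexp background correction and 1.42 without pgp1-2 array 1. The normexp setting added an offset of 50 to every signal. Processed signals of the 44 were at most 41.7 in pgp1-2, so that offset by itself shrinks their log2 ratios. For the 12 transcripts with the highest wild-type means the bounds, 2.99 to 3.98, became 1.25 to 2.06 after normexp and 2.37 to 3.30 without that array.

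**Figure D1:**
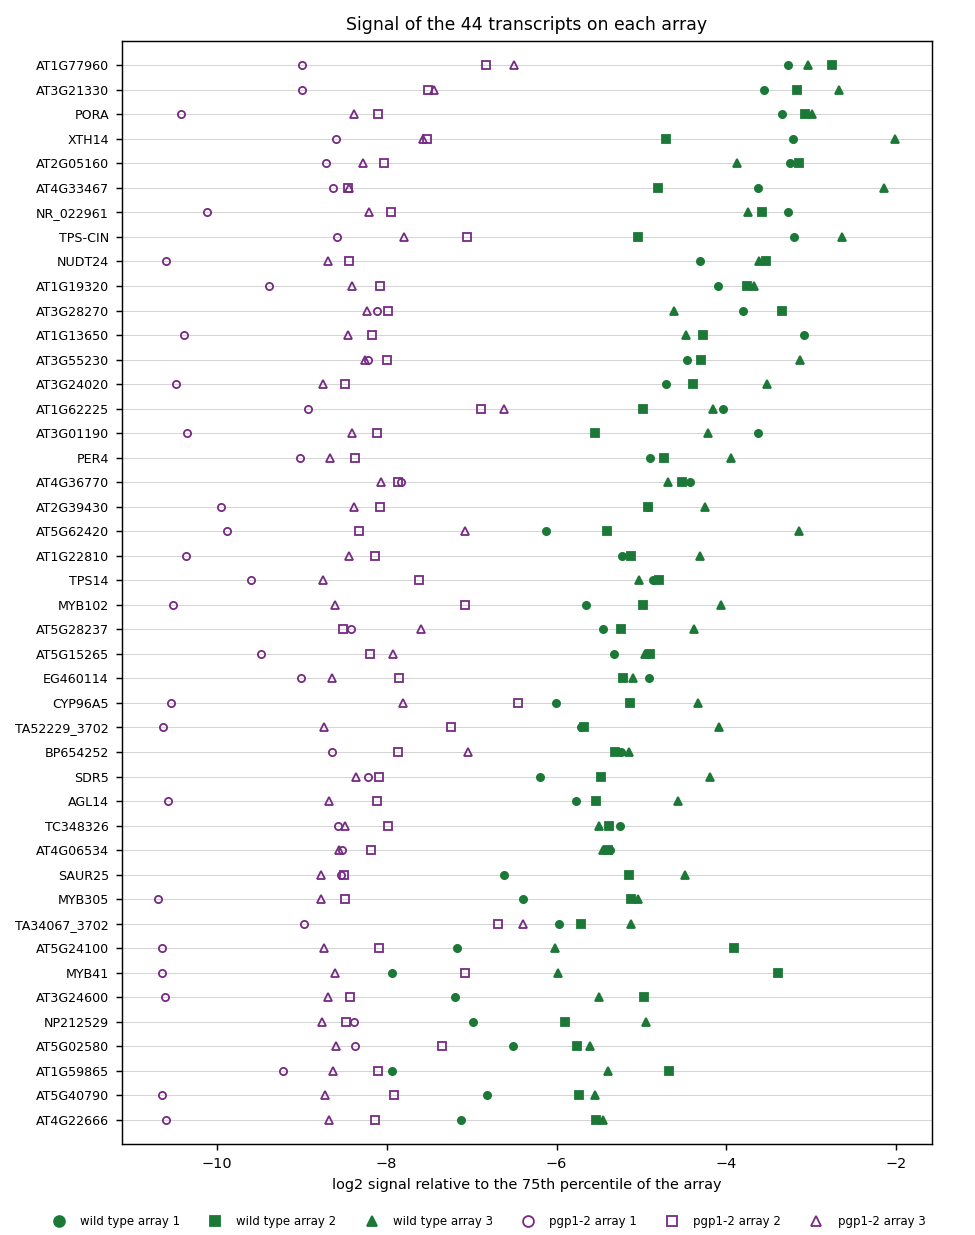
Each row is 1 of the 44 transcripts and each point its log2 signal relative to the 75th percentile of 1 array, with filled green symbols for the 3 wild-type arrays and open purple symbols for the 3 pgp1-2 arrays. Wild-type and mutant points are apart in 43 rows and overlap in that of MYB41, and the open circles of pgp1-2 array 1 are the lowest mutant points in most rows.

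Absence in the mutant was not complete by a looser criterion. The software also flags spots whose signal is positive and significantly above the local background. By that flag 8 transcripts were seen on 0 mutant arrays, 16 on 1, 14 on 2 and 6 on all 3. Thus 36 of the 44 gave some signal in at least 1 pgp1-2 sample, below the level counted as detected. Of all non-control spots, 87.9%, 79.8% and 79.5% carried the looser flag on pgp1-2 arrays 1 to 3. Well above background were 79.1%, 69.7% and 70.4%, so many undetected spots of any gene carry it. The count is therefore not read as a trait of these transcripts. The 6 seen on all 3 were AT1G77960 and AT3G21330, which had the largest bounds, XTH14, TPS-CIN, AT1G62225 and TA34067_3702.

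**Figure D2:**
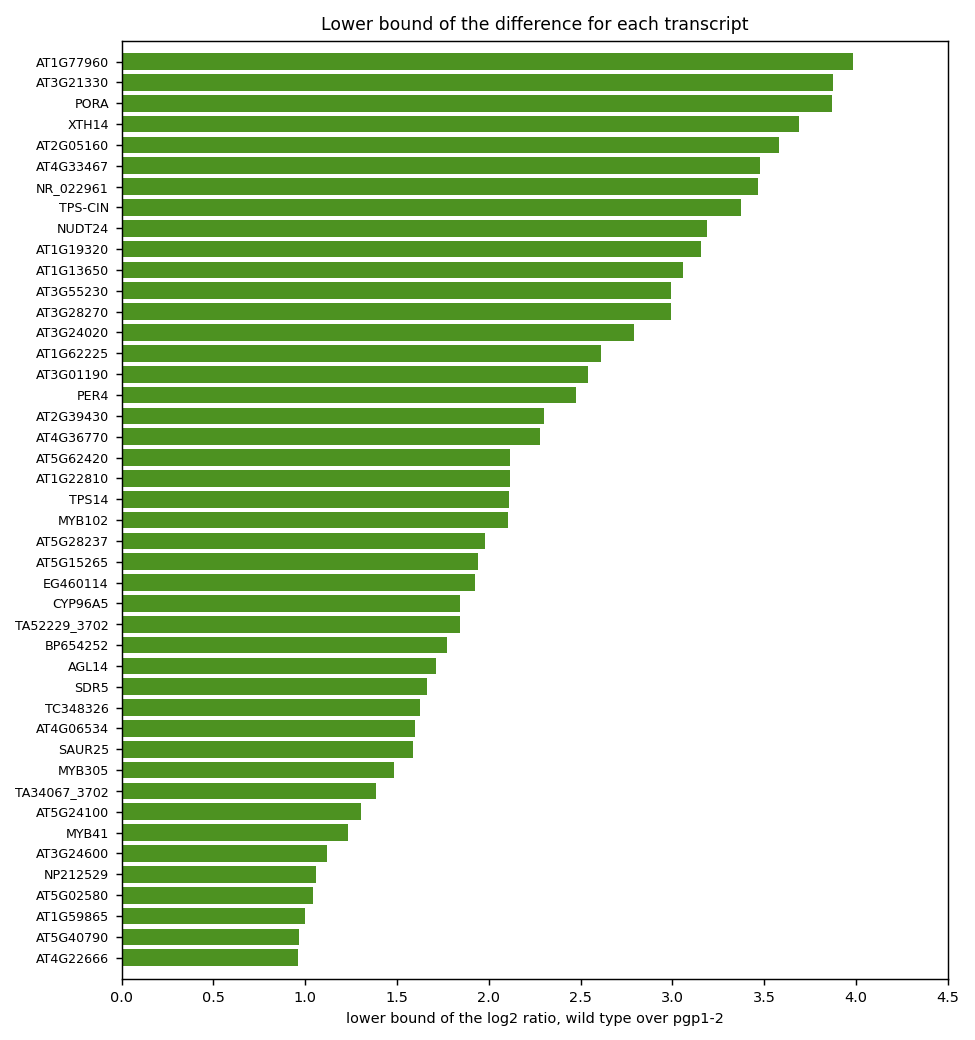
Bars give, for each of the 44 transcripts, the nominal lower bound of the log2 ratio of wild type over pgp1-2. Mutant signals below the lowest signal well above background on their array were raised to it. The bars run from 0.96 for AT4G22666 to 3.98 for AT1G77960, and all lie above 0.

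Of the 44, 37 matched a locus and all 37 are protein coding; 12 of these have a gene symbol and 25 are known by a locus number, 1 of them, AT4G13790, with the synonym SAUR25. The other 7 are known by the name in the array file. The enzymes come first. PORA is a light-dependent protochlorophyllide oxidoreductase, an enzyme of chlorophyll synthesis best known from dark-grown seedlings. Its signal was -3.34, -3.08 and -2.99 on the wild-type arrays and -10.42, -8.11 and -8.38 on the mutant arrays. The wild-type arrays lay within a narrow band (mean -3.14 ± 0.18, SD, n = 3), all far above the mutant arrays. On this probe the mean was at least 14.6-fold higher, more than a second probe of the gene measured.

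XTH14 belongs to the xyloglucan endotransglucosylase/hydrolases, which cut and rejoin hemicellulose chains in the cell wall. It stood at -3.21, -4.71 and -2.01 in the wild type and at -8.60, -7.52 and -7.58 in pgp1-2, at least 12.9-fold apart. Wild-type array 3 was highest and array 2 lowest, with an SD of 1.35 over the 3 arrays. Its bound, 3.69 on the log2 scale, was 3.04 without wild-type array 3 and 4.39 without array 2. TPS-CIN, a terpene synthase that makes the monoterpene 1,8-cineole, showed the same order: -3.20, -5.04 and -2.64 in the wild type, against -8.59, -7.06 and -7.79 in pgp1-2. Its bound was at least 10.4-fold, or 3.38 on the log2 scale, and was 4.08 without wild-type array 2. The gene table gives the name TPS-CIN to a second locus, AT3G25820, to which no probe was matched, so signals from the copies cannot be told apart.

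NUDT24, of the nudix hydrolases that split nucleoside diphosphates linked to other groups, gave -4.31, -3.53 and -3.62 in the wild type. In pgp1-2 it gave -10.60, -8.44 and -8.68. This placed the wild type at least 9.10-fold higher, with no array of one group near those of the other. PER4, a peroxidase, read -4.89, -4.74 and -3.95 in the wild type and was at least 5.56-fold higher there. TPS14, a second terpene synthase, was even across the wild-type arrays at -4.86, -4.80 and -5.03, and its bound was at least 4.31-fold. CYP96A5, a cytochrome P450, and SDR5, a short-chain dehydrogenase/reductase, varied more. CYP96A5 read -6.01, -5.13 and -4.34 and SDR5 -6.19, -5.48 and -4.19, with bounds of at least 3.59-fold and 3.17-fold. In both, wild-type array 3 was highest and array 1 lowest.

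Among regulators, 3 were MYB transcription factors of the R2R3 class, plant factors with a paired MYB DNA-binding domain. MYB102 read -5.65, -4.98 and -4.07 in the wild type and was at least 4.30-fold higher there. MYB305 read -6.40, -5.13 and -5.04 and was at least 2.79-fold higher. MYB41, known as an activator of suberin synthesis, read -7.94, -3.39 and -5.98 in the wild type and -10.64, -7.08 and -8.61 in pgp1-2. Its wild-type array 1 lay below pgp1-2 array 2, so the groups overlapped, and its highest value, on wild-type array 2, came from a spot that the software flagged as an outlier. The bound of at least 2.35-fold for MYB41 rests on that spot. AGL14, a MADS-box transcription factor known from root development, read -5.77, -5.53 and -4.57 and was at least 3.27-fold higher in the wild type. SAUR25, one of the small auxin-up RNAs, which are induced by the hormone auxin, read -6.62, -5.15 and -4.48 and was at least 3.01-fold higher.

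The transcripts known by number included the one with the largest bound. AT1G77960 read -3.27, -2.76 and -3.04 in the wild type and -8.99, -6.84 and -6.50 in pgp1-2, at least 15.8-fold apart. AT3G21330 read -3.55, -3.17 and -2.67 against -8.99, -7.51 and -7.44, at least 14.7-fold apart. In both the wild-type arrays were close together and the mutant arrays spread out, with array 1 lowest. The mutant values were all below detection, and array 1 lay on slide 1, where detection began at lower signals. Their spread is therefore not read as a trait of the transcripts. AT2G05160 gave -3.25, -3.14 and -3.88 in the wild type and -8.72, -8.03 and -8.28 in the mutant, a bound of at least 11.96-fold. AT4G33467 gave -3.63, -4.81 and -2.14 against -8.63, -8.46 and -8.45, a bound of at least 11.1-fold. For AT4G33467 the mutant values, all below detection, lay close together. The wild-type values did not, with array 2 lowest as for XTH14 and TPS-CIN. The bound for AT4G33467, 3.48 on the log2 scale, was 2.78 without wild-type array 3 and 4.12 without array 2.

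AT1G19320 was at -4.10, -3.76 and -3.67 in the wild type and at -9.38, -8.08 and -8.41 in pgp1-2, at least 8.93-fold apart. AT1G13650 was at -3.09, -4.27 and -4.48 against -10.38, -8.17 and -8.46, at least 8.32-fold apart. AT3G28270 was at -3.81, -3.35 and -4.62 against -8.11, -7.98 and -8.23, at least 7.95-fold apart. For AT1G13650 the high wild-type array was array 1, while for AT3G28270 it was array 2, so no single wild-type array led for all transcripts. AT3G01190 was at -3.63, -5.54 and -4.22 in the wild type and at -10.35, -8.11 and -8.40 in pgp1-2, and was at least 5.81-fold higher in the wild type; array 2 was again the lowest of the wild-type arrays. The transcript with the steadiest wild-type signal, AT4G06534, read -5.36, -5.40 and -5.45 (SD 0.042) and had a bound of at least 3.03-fold.

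Bounds of the remaining numbered loci ran from at least 7.95-fold for AT3G55230 to at least 1.95-fold for AT4G22666, the smallest of the 44. AT3G24020, AT1G62225 and AT2G39430 lay at at least 6.93-fold, 6.12-fold and 4.93-fold, AT4G36770 at 4.85-fold, and AT5G62420 and AT1G22810 both at 4.33-fold. Next came AT5G28237 and AT5G15265 with 3.94-fold and 3.85-fold, then AT5G24100, AT3G24600, AT5G02580 and AT1G59865 with 2.47-fold, 2.17-fold, 2.06-fold and 2.00-fold. AT5G40790, at at least 1.95-fold, and AT4G22666 were the 2 transcripts whose bound was under 2-fold. Of those named by the file only, NR_022961 was the brightest on its own probe, with -3.28, -3.58 and -3.75 in the wild type and -10.12, -7.95 and -8.21 in pgp1-2, at least 11.1-fold apart. EG460114, TA52229_3702, BP654252, TC348326, TA34067_3702 and NP212529 had bounds from at least 2.08-fold to at least 3.80-fold.

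The thresholds of the rule were met by different margins. Nearest to the minimum difference of 1 were TA34067_3702, with a wild-type mean 1.75 above the mutant mean, AT5G02580 with 2.14 and NP212529 with 2.60, so no transcript lay close to it. Detection was the tighter criterion. A further 222 probes were well above background on all wild-type arrays and on exactly 1 mutant array, and that array was pgp1-2 array 1 for 218 of them, array 2 for 3 and array 3 for 1. Just outside lay AT1G52820, which read -3.36, -5.09 and -3.34 in the wild type and -8.24, -8.38 and -8.46 in pgp1-2 and was flagged on mutant array 1. JMT, a jasmonic acid methyltransferase, and NM_106303 also missed by 1 array, with differences of 1.86 and 4.03. Those nearest to detection in the mutant on the inside were SDR5, AT3G28270 and AT4G36770. Without pgp1-2 array 1 the rule would take 256 transcripts, of which 43 are among the 44.

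Some loci were measured by other probes as well. For 29 of the 37 loci the chosen probe was the only one. The other 8 loci had 10 further probes, and at 5 loci such a probe was well above background on at least 1 mutant array. At 2 loci, PORA and AT3G28270, a further probe was detected on all 3 mutant arrays. The label of a transcript detected only in the wild type therefore holds there for the chosen probe and not for every probe of the locus. The further PORA probe read -0.61, -0.79 and -0.78 in the wild type and -3.97, -3.92 and -3.70 in pgp1-2. Both groups were measured and did not overlap, and the wild-type mean was 3.14 higher on the log2 scale. This measured difference is smaller than the bound of 3.87 from the chosen probe, so the PORA probes disagree on its size. The last PORA probe was well above background on no array. The brightest probe of AT3G28270 read -0.47, 0.08 and -1.30 against -5.05, -4.10 and -4.36, a difference of 3.94.

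The further probe of TPS-CIN read -2.32, -4.41 and -1.93 in the wild type, with array 2 again lowest, and was detected on mutant array 1. That of SAUR25 read -4.99, -3.36 and -2.94 and was likewise detected on mutant array 1. For AT1G77960, which had the largest bound, the probes disagreed. Its further probe read -5.21, -6.07 and -6.61 in the wild type and -4.67, -7.24 and -7.34 in pgp1-2, so the groups overlapped, and it was well above background on wild-type array 1 and pgp1-2 array 1. The 3 loci whose further probes were detected on no mutant array were AT3G24020, AT5G28237 and TPS14, and that of TPS14 was detected on no wild-type array either.

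**Figure D3:**
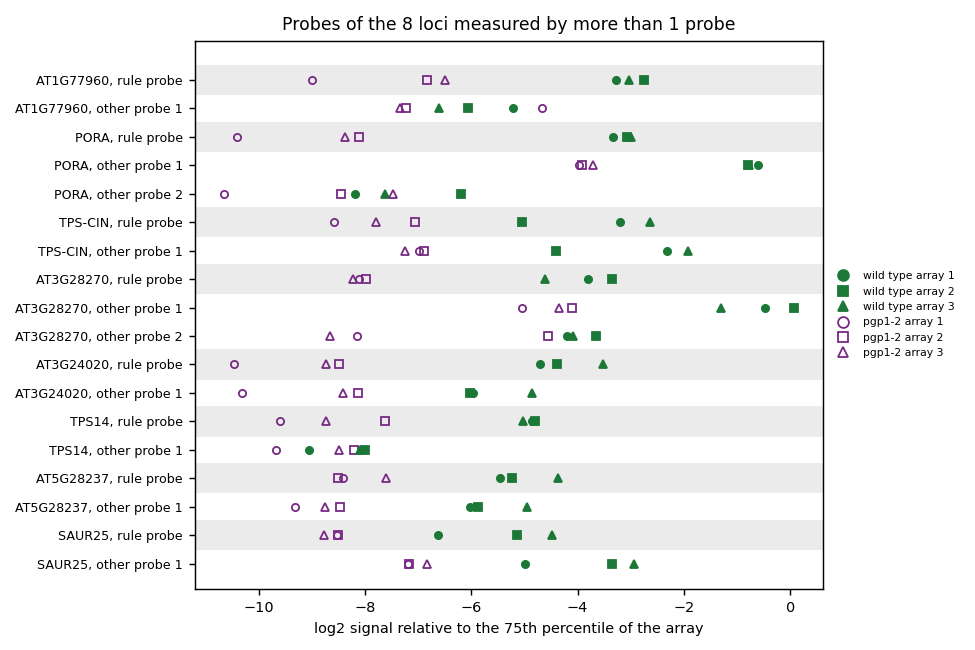
Rows on grey are the chosen probes of the 8 loci with several probes, and the rows below each are its further probes; points give the log2 signal with the array's 75th percentile at 0, with wild type filled green and pgp1-2 open purple. Further probes of PORA and AT3G28270 keep the groups apart at higher signals, while those of AT1G77960 and TPS14 bring the groups together.

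The wild-type arrays differed from each other to a varying degree. The SD over the 3 wild-type arrays ran from 0.042 to 2.28, with a median of 0.625. Among 6180 other probes in the same range of wild-type means the median SD was 0.163. Those probes were not matched in level within that range. Of probes detected on all wild-type arrays, 4.98% lay below the median of the 44 and 21.2% below the brightest. Most of the 6180 were thus brighter than that median, so the SDs are not compared at a like level. The wild-type range exceeded 2 for 10 transcripts and was under 0.5 for 10. Wild-type array 1 gave the lowest value for 28 of the 44 and array 3 the highest for 26. Of the other probes in that range, 33.8% were lowest on wild-type array 1. The rule admits fainter signals on that array, where detection began at -8.13, against -5.94 and -6.06 on arrays 2 and 3. The part of this limit in the order was not tested. The medians over the 44 were -5.24, -4.97 and -4.36 on arrays 1 to 3. In pgp1-2 the medians were -9.30, -8.08 and -8.44. The median lower bound was 3.13 on the log2 scale within slide 1 and 1.60 within slide 2, and it reached 1 for 42 and 37 of the 44.

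XTH14, AT4G33467, TPS-CIN and AT3G01190 were picked, after their values were seen, from the 8 transcripts lowest on wild-type array 2, and set beside markers of root tissue. Of 12 root markers, 12, 5 and 10 were well above background on wild-type arrays 1 to 3, and 7, 5 and 6 on the pgp1-2 arrays. Detection began at lower signals on slide 1, which held array 1 of each group, so these counts do not compare evenly between slides. EXPA7, EXPA18, PRP3 and PRP1, cell wall protein genes known from root hairs, were detected on wild-type arrays 1 and 3 and on no other. These 4 and IRT1, the iron transporter of the root surface, were well above background on no pgp1-2 array. Other markers of the list went the other way. COBL9 was well above background on 2 wild-type and 3 pgp1-2 arrays, and LRX1 on 1 and 2. The mean log2 signal of the 12 markers was -4.03, -4.92 and -3.60 in the wild type and -5.75, -5.05 and -5.31 in pgp1-2, so that wild-type array 2 was lowest for the markers too. Their summed signal went the other way, from 18.7 to 20.2 times the 75th percentile in the wild type and from 45.8 to 68.0 times in pgp1-2, and PYK10, an abundant root beta-glucosidase, dominated it. No marker was used to choose the transcripts, and the part of root tissue in the result was not tested.

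**Figure D4:**
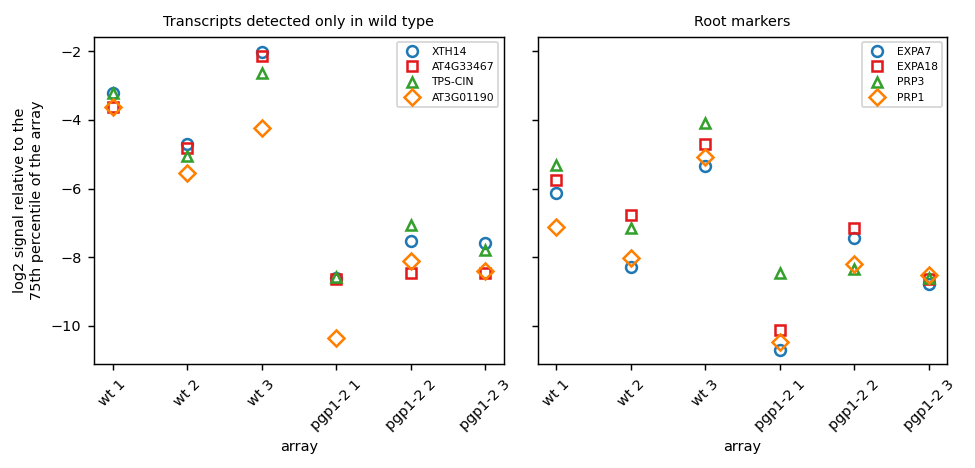
Log2 signal relative to the 75th percentile on each of the 6 arrays, for 4 transcripts detected only in the wild type (left) and for 4 of the 12 root markers (right), with 1 symbol shape per gene. The genes of both panels were picked for their pattern over the wild-type arrays, so its likeness is no result: in both, wild-type array 2 lies below wild-type arrays 1 and 3, and all pgp1-2 values lie below -6.46.

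Tissue markers and neighbours were read in a test across the whole array. For each of 22682 genes detected on all arrays of at least 1 group, limma compared pgp1-2 with the wild type, and 11885 genes, 52.4%, passed an adjusted p of 0.05; 24.5% of all genes were lower in pgp1-2 and 27.9% higher. Of the root markers in this test, 2 of 6 were higher (PYK10 by 1.56 and COBL9 by 1.70) and 2 lower. CASP1 was lower by 4.38 and CASP2 by 0.71, and CASP1 was well above background on 1 pgp1-2 array. WER and SCR did not pass at 0.04 and -0.01. All 5 green-leaf markers were detected on all 6 arrays and lower in pgp1-2, with a median difference of -1.05; under quantile normalization 4 of 5 were lower, with a median of -0.42. Of 8 stomatal markers 2 were higher and 5 lower, of 8 vascular markers 7 were lower, and of the epidermal markers 2 of 4 and the trichome markers 2 of 3 were lower. All 4 meristem markers tested were higher, as was 1 of 2 flower markers; the 1 seed marker tested did not pass.

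In the genome the transcripts were scattered. Chromosomes 1 to 5 held 8, 4, 8, 9 and 8 of the 37 loci, and the largest departure was on chromosome 4, with 24.3% of them against 15.1% of loci detected on all wild-type arrays. The closest pair, AT3G24020 and MYB305 on chromosome 3, lay 34 protein-coding loci apart. The transcript nearest to PGP1 itself, AT2G39430 on chromosome 2, lay 17 protein-coding loci away. Position was not used by the rule, so genes next to the transcripts could be read in the test. Of 74 adjoining loci, 38 were measured and 19 passed, or 50% against 52.4% of all genes; 13 were lower and 6 higher in pgp1-2. The lower share, 34.2%, compares with 24.5% of all genes, and the median difference was -0.10 against 0.03.

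Next to AT3G55230, AT3G55240 fell from 0.78 ± 0.53 in the wild type to -6.29 ± 0.79 in pgp1-2 (SD, n = 3 each), a log2 difference of -7.07 (SE 0.45, limma adjusted p = 0.000205). It was detected on 2 of 3 mutant arrays, so the size rests in part on a signal below detection, and over the scalings tried it ran from -7.13 to -5.23. Both neighbours of AT5G40790 also fell. AT5G40800 fell by 2.89 (SE 0.55, limma adjusted p = 0.00621), and LHT1, an amino acid transporter, fell by 1.97. XTR6, a xyloglucan endotransglucosylase/hydrolase next to XTH14, rose by 3.57 (SE 0.19, limma adjusted p = 0.000133), from -4.42 ± 0.15 to -0.85 ± 0.35. XTH14 and XTR6, adjoining genes of 1 family, had differences of opposite sign. SDR3, next to SDR5, fell by 1.46 (SE 0.48, limma adjusted p = 0.0434), while AT2G47150 on the other side of SDR5 did not pass at -1.38 (limma adjusted p = 0.0543).

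**Figure D5:**
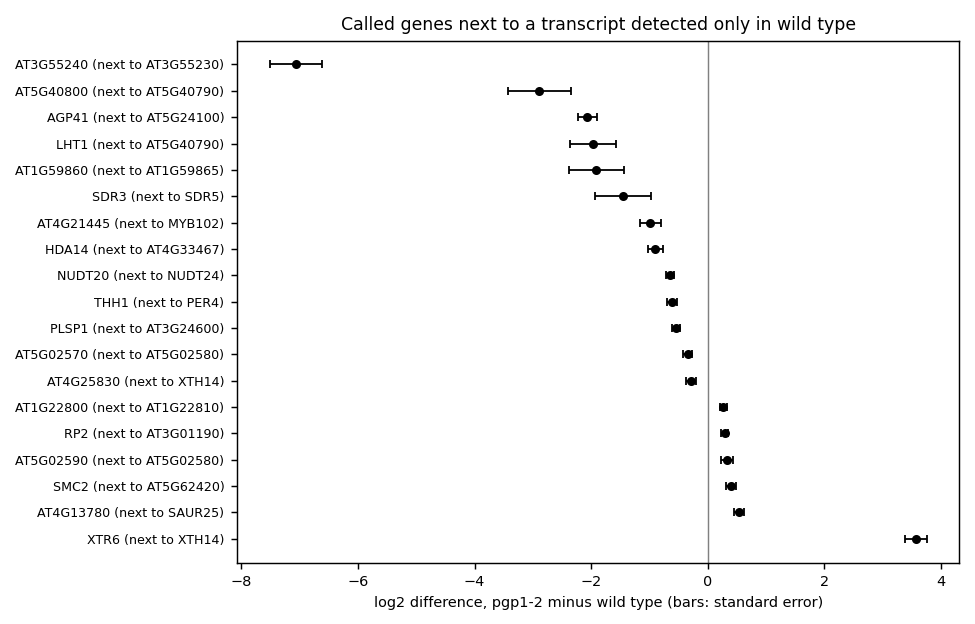
Points are the log2 differences, pgp1-2 minus wild type, of the 19 adjoining genes that passed the test, with bars of 1 standard error. The values run from -7.07 for AT3G55240 to 3.57 for XTR6, and 13 points lie left of 0.

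Families to which the named transcripts belong were counted by name from the gene table, without the transcripts themselves. The names were not checked against sequence, so a family may hold loci that do not belong to it. It may also miss loci that carry other names, so the counts describe the loci so named and not whole families. Across 10 families 216 other genes were measured, 133 of them, or 61.6% against 52.4% of all genes, passed, and these divided into 65 higher and 68 lower in pgp1-2. Both other protochlorophyllide oxidoreductases were lower, PORB by 2.65 (SE 0.13, limma adjusted p = 0.000126) and POR C by 2.09 (SE 0.18, limma adjusted p = 0.000397). PORB and POR C carry out the same step of chlorophyll synthesis in green tissue. The SAUR genes were mostly lower, with 27 of 51 lower and 10 higher and a median of -0.57, although the largest change was the rise of AT5G50760 by 3.16 (SE 0.26, limma adjusted p = 0.000355). AT4G09530, another SAUR gene, was detected on no wild-type array and on all mutant arrays, at least 3.64-fold higher in pgp1-2 (limma adjusted p = 0.00074).

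Members of the XTH family, unlike XTH14, were mostly higher: 14 of 23 rose and 3 fell, with a median of 0.90, and XTH31 rose by 2.97 (SE 0.39, limma adjusted p = 0.00163). Of 6 numbered peroxidases 4 were higher and 1 lower, with PRX52 up by 3.08 (detected on 1 wild-type array) and PA2 up by 2.91. The 6 CYP96A genes had 4 higher and 1 lower. CYP96A11 was detected on no wild-type array and on all mutant arrays, at least 16.1-fold higher in pgp1-2 (limma adjusted p = 8.96e-05), the opposite pattern to CYP96A5. Among 4 other short-chain dehydrogenase/reductases 3 were higher and SDR3 lower.

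Other regulators divided more evenly. Of 70 R2R3-MYB genes 19 were lower and 15 higher, with a median of -0.07; the share that passed, 48.6%, was near that of all genes. MYB47 fell from -0.68 ± 0.15 to -4.77 ± 0.82, a difference of -4.09 (SE 0.39, limma adjusted p = 0.000568). MYB27 was detected only on the mutant arrays and was at least 1.90-fold higher there. The AGAMOUS-like genes, kin of AGL14, had 11 of 28 higher and 5 lower, and SEP4 fell by 2.88 (SE 0.24, limma adjusted p = 0.000388). Nudix hydrolases had 9 of 25 lower and 4 higher, again near the share of all genes, and the 1 other terpene synthase measured, TPS04, did not pass at 0.14. Spike-in scaling, which was added after seeing the data, raised the median difference of all genes to 0.43. Under it MYB and nudix calls turned mostly higher, with 18 higher against 5 lower and 2 against 0. SAUR calls were then 15 lower against 11 higher, stomatal markers had 1 higher and 0 lower, green-leaf markers lower fell to 2 of 5 and vascular markers lower to 3 of 8, and the median difference of the neighbours was 0.29. PORB, POR C and the 12 neighbours and relatives with the largest differences kept their direction and passed the threshold under all 5 scalings tried.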

How the data were processed

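RNA of 6 whole-seedling samples was measured on 6 one-colour Agilent arrays. Per the file headers, the authors quantified each array in 1 channel with Feature Extraction 10.7.1.1; the deposited files hold, per spot, a processed intensity on a linear scale (background-corrected by the software), median intensities of spot and background, and flags of 0 or 1. No normalization between arrays is recorded there. No spot was saturated.

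The values used were log2 of the deposited processed signal minus the array's 75th percentile over non-control spots, averaged over spots of 1 probe. The gene table of TAIR10.1 placed 34358 of 43603 probes at 25433 loci; its build differs from that in the headers, so no coordinates are given; 9245 kept the file's name. The transcripts, gene lists and families were chosen with earlier results of these data known. For replicated probes a majority of spots decided the flag. All 44 transcripts could be named; values on all arrays were given first for the 12 with the highest wild-type mean. The 12 neighbours and relatives with the largest differences past the threshold are named, and AGP41 to PLSP1 appear in the neighbour plot; PORB, POR C, LHT1, SDR3, AT2G47150, TPS04 and other transcripts with full values were chosen after their values were seen.

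The two-sided test used lmFit and eBayes of limma 3.58.1 under R 4.3.3, on 1 probe per gene that was detected on every array of either group, with Benjamini-Hochberg adjustment over 22682 genes; p-values measure only the spread between these samples. MYB41 lost its spot on 1 array to the outlier flag and is not in the test. The test script was checked on simulated data. Slide and replicate number were tried as blocks. Deviations of same-numbered samples correlated at 0.081, 0.12 and 0.059 over genes. Those of samples with different numbers correlated at -0.14 to 0.039, so each same-numbered value was the highest for its samples. As the same-numbered values were not above 0.1 for all, the main fit did not take the numbers as pairs. Whether they mark pairs was not tested. The files hold no mean signal, so the normexp alternative used median signals, with an offset of 50. Protein relatives and promoter motifs, planned at first, are not analysed here; families named in the gene table took the place of relatives. The number of arrays limits the precision.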

Additional observations from a re-analysis of the deposited data

How the results depend on the processing

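The count of 44 transcripts rests on the software's flags, which scaling does not touch, so the 44 found under median, quantile or spike-in scaling (the last chosen after seeing the data), with a minimum difference of 0 or with any spot counted as detected show no stability; a minimum of 2 gave 43. It fell to 24 with normexp background correction of the median signals, whose offset of 50 shrinks the log2 ratios of faint spots. It was 82 with the positive-and-significant flag, of which 9 are among the 44, 8 of them on the same probe, 256 where 1 mutant array could be above background, and 144 where 2 wild-type arrays sufficed. Leaving out 1 array gave 45 to 256 transcripts: 66, 108 and 63 without wild-type array 1, 2 or 3 and 256, 47 and 45 without pgp1-2 array 1, 2 or 3. The median lower bound, 2.11 on the log2 scale, was 0.87 with normexp, 3.13 within slide 1, 1.60 within slide 2 and 1.42 to 2.51 without 1 array, the lowest without pgp1-2 array 1. For the 12 transcripts with the highest wild-type means, 92 of 144 bounds under 12 alternatives moved by less than the transcript's own SD over the wild-type arrays. Under normexp none of the 12 did, with bounds of 1.25 to 2.06. A larger SD lets more bounds pass: 11 of 12 for AT4G33467 (SD 1.34) and 5 of 12 for PORA (SD 0.18). The count is therefore no measure of how stable the bounds are. Spike-in scaling lowered the number of genes passing from 11885 to 5216, of neighbours from 19 to 9 and of family genes from 133 to 95, and 76.2% of the genes that passed were then higher in pgp1-2, against 53.2%. The other settings gave 9381 to 12140 genes, 15 to 22 neighbours and 117 to 141 family genes; with the next protein-coding locus 28 of 50 neighbours passed. In a fit with a replicate block, 11016 genes, 20 neighbours and 134 family genes passed, and with the slide as a block 11381, 16 and 132. The cause of these shifts was not tested, and neither was the part of the offset in those under normexp. Calls on protein relatives and promoter motifs were not run. Detection limits the mutant side of all 44, which is known only as a nominal bound.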
